A study of Mus musculus with 40 samples.

Results

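The 10 hippocampus arrays titled wt_HPC, of 40 arrays in the series, were taken on their own, and the differences between these control animals were described gene by gene. Each array held total RNA from the hippocampus of an untreated wild-type C57BL/6 male of 8 weeks, hybridized to an Affymetrix mouse expression array (Mouse430_2). The other arrays of the series were 10 hippocampi of Df(16)A/+ males, which carry a heterozygous deletion on chromosome 16, and 10 prefrontal cortices of each genotype, all from male littermates of that age; by the series design both regions came from the same 10 mice of each genotype. Values were log2 GCRMA signals, in which 1 unit is a doubling of the hybridization signal. Of 45101 probe sets, 16524 had a mean above 6 over the 10 arrays and stood for 9173 named genes, each read from its probe set with the highest mean. The 200 genes with the highest SD over the arrays were chosen by that SD, so their SDs and the correlations among them are descriptions. Where such a gene comes up in a fit across all probe sets, its slope is given without a p, and its call is no independent evidence of covariation.

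Control animals of 1 strain, sex and age are often treated as copies of each other, yet a dissected brain region also carries what the animal was doing and what the blade took along. Choroid plexus is the secretory epithelium of the brain ventricles that makes cerebrospinal fluid, and it lies against the hippocampal fimbria, where it can come away with the tissue or be left behind. Immediate early genes such as Fos and Arc are transcribed within minutes of neuronal firing. Corticosterone, the stress hormone of rodents, acts through the glucocorticoid receptor on genes such as Fkbp5 and Sgk1, and output genes of the circadian clock such as Dbp follow the time of day. The granule cells of the dentate gyrus and the pyramidal cells of CA1 to CA3 are the main neurons of the hippocampus, each with marker genes of its own.

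The hippocampal label was borne out by Prox1, the transcription factor of dentate granule cells, at 8.35 to 8.79 in the wt hippocampus arrays and 3.11 to 3.42 in the wt prefrontal arrays. The 2 regions appear to have been scaled separately, so levels across them were not tested. The array records placed replicates 1 to 8 and 10 in 1 hybridization run and 1 chip lot, while replicate 9 belonged to another run and another lot and had no scan record. The lowest correlation between array profiles was 0.994. Replicate 1 had an overall median of 3.94, against 3.62 to 3.71 in the other 9 arrays. The difference between the 3′ and 5′ probe sets of beta-actin, a measure of RNA integrity and labelling, was 1.65 in replicate 2, 1.64 in replicate 1 and 1.45 in replicate 10, and 1.18 to 1.36 in the rest. Replicates 1 and 2 had the lowest value for 72 and 62 of the 200 genes, and replicates 9 and 6 had the highest value for 77 and 35. The median r within each group of genes below is given with and without these 4 arrays. List values and principal components are given with all 10 arrays only.

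Most genes differed little between animals. The median SD over the 9173 genes was 0.113 log2 units, the 95th percentile was 0.267 and the 99th percentile was 0.445. Only 74 genes had an SD above 0.5 and 15 had one above 1. The last of the 200 genes had an SD of 0.341 and the next gene one of 0.339. Of the 19900 pairs among the 200 genes, 2304 (11.6%) had a Pearson r of 0.8 or more over the 10 arrays and 51 had one of -0.8 or less. Over all gene pairs the share at 0.8 or more was 0.983%, and the median r was 0.34 among the 200 and 0.086 over all genes. Each r rests on 10 arrays and genes of 1 array share its depth, scaling and RNA quality, so pairs are not independent. Average linkage at a mean r of 0.6 or more joined 147 of the 200 genes in 4 groups of 71, 57, 11 and 8 genes, and 53 genes lay in none. Each group had its own pattern of arrays, as the map of the 200 genes by array shows. The first principal component of the 200 genes took 62.5% of their variance, with replicates 2 and 9 at its ends and choroid plexus genes in the lead. The second took 13.3%, with replicate 1 at its end, and the third 6.77%, with replicate 6 at its end.

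**Figure D1:**
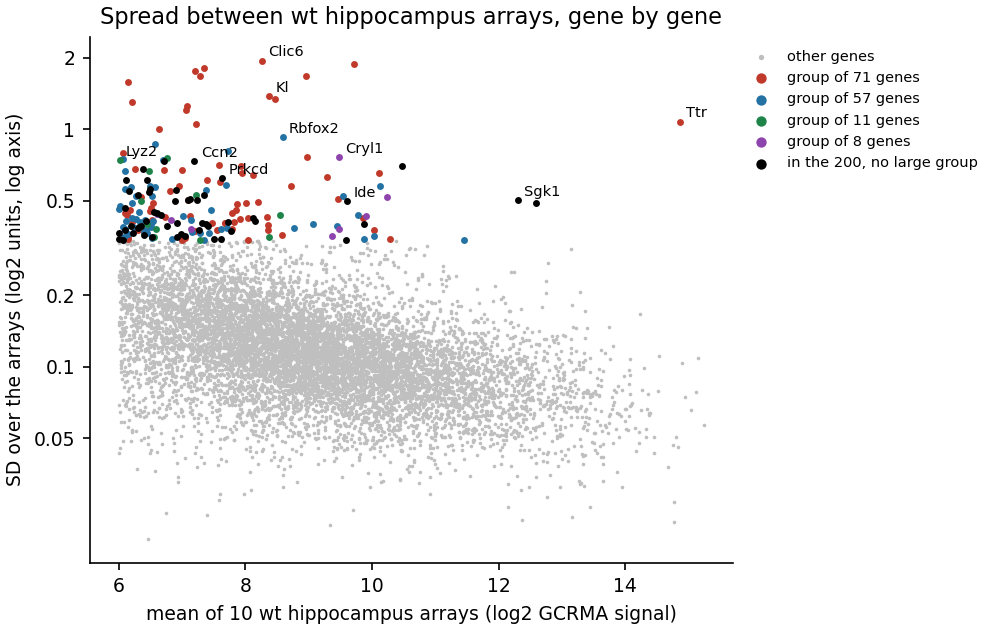
SD over the 10 wt hippocampus arrays (log2 units, log axis) against the mean log2 GCRMA signal, 1 point per gene, 9173 genes, with the 200 most variable genes in colour by group. The highest SDs belong to the group of 71 genes, led by Clic6 at 1.94, far above the median SD of 0.113.

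**Figure D2:**
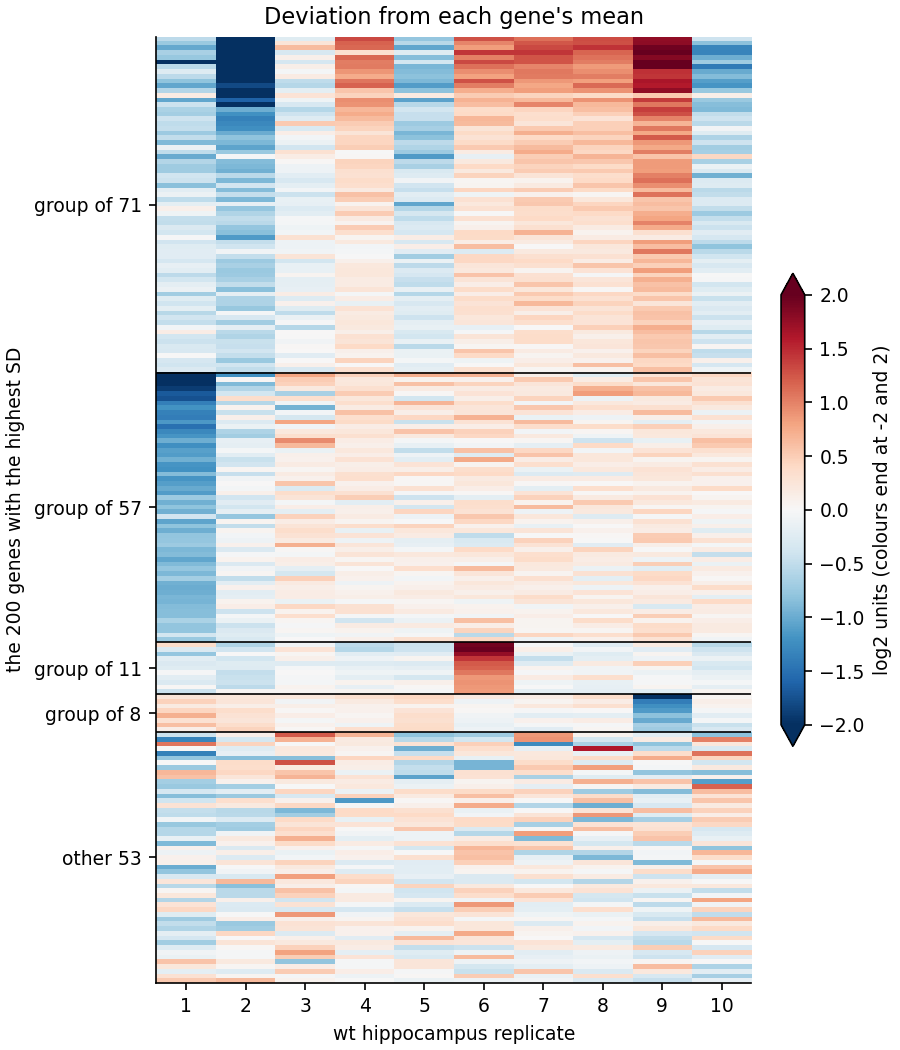
Deviation of each of the 200 most variable genes from its mean (log2 units, colours end at -2 and 2), 1 row per gene and 1 column per wt hippocampus replicate. The group of 71 is low in replicate 2 and high in replicate 9, the group of 57 is low in replicate 1, the group of 11 is high in replicate 6 and the group of 8 is low in replicate 9.

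The leading difference between control hippocampi was in choroid plexus genes. All 14 choroid plexus genes with a mean above 6, of 23 listed, were among the 200 and all 14 fell in the group of 71, where 2.18% of all genes were among the 200. Their median SD was 1.36, and their median pairwise r was 0.92. Averaged over the list, replicate 2 was 2.79 log2 units below the mean of the 10 arrays, and replicate 9 was 1.51 above it. Replicates 4, 6, 7 and 8 stood at 0.78 to 0.94, replicate 3 at -0.06, and replicates 1, 5 and 10 at -0.84 to -0.64. In bulk tissue, fewer cells of a type and less RNA per cell cannot be told apart.

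The promoters of 3 of these genes are shown because their transcripts varied together over the arrays although the genes lie on different chromosomes. Each line gives the 250 bases before the annotated start, 5′ to 3′ on the gene's strand, from RefSeq on GRCm38.p6. Kcnj13 lies at chr1:87394730-87394979 on the minus strand, Kl at chr5:150952357-150952606 on the plus strand and Otx2, by 1 of its 4 annotated starts, at chr14:48665110-48665359 on the minus strand. Capitals mark a match to TAATCC, the core bound by OTX factors, read on either strand.
Kcnj13: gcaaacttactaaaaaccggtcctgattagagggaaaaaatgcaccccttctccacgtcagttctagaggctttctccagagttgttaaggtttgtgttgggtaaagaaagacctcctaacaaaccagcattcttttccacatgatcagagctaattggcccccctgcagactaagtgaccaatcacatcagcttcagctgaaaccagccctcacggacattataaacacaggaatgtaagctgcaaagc
Kl: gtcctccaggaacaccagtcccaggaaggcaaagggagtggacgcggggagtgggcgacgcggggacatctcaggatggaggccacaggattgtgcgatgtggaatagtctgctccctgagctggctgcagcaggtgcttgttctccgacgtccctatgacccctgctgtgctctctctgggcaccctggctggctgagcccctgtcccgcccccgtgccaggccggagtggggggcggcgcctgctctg
Otx2: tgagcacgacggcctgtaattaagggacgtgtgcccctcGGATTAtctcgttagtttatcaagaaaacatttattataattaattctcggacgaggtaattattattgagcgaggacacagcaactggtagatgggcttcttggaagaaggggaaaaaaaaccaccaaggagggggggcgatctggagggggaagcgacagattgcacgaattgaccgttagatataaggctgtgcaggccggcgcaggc
The match in Otx2 began at position -211 from the start, and the windows of Kcnj13 and Kl held none. Of the 4 Otx2 starts the one shown was chosen because its window held a match, and the windows of the others held none. Over all 32851 windows of this length, 6.252% held TAATCC on either strand. For the 56 of the 71 genes with a window it was 6 of 73 windows (8.219%), those of Ace, Car14, Mest, Otx2 and Vat1l, and for the choroid plexus list it was 1 of 24.

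Clic6, an intracellular chloride channel protein, had the highest SD of all genes at 1.94 by the probe set used, with a lowest value of 3.42, a median of 8.69 and a highest of 10.04. Another Clic6 probe set, with r of 0.89 with that one, had an SD of 0.94 and ranged from 6.17 to 8.94. Ecrg4, which encodes a peptide precursor secreted by choroid epithelium, followed with 5.10, 10.34 and 11.51 and an SD of 1.87. Kcne2, a potassium channel subunit, had 3.38, 8.09 and 9.29. In all 3 genes replicate 2 was lowest and replicate 9 highest. Folr1, which takes folate across the plexus, had 3.27, 7.24 and 9.31 as lowest, median and highest value. Otx2, the homeodomain factor that keeps the epithelium's identity, had 2.82, 6.63 and 8.25. Kl (klotho, a membrane protein of the calcium and phosphate balance) had 5.28, 8.80 and 9.83, and Kcnj13, an inward rectifier, had 5.11, 9.50 and 10.79. The arrays kept nearly the same order in each gene, with replicate 2 lowest. It stood farther apart in Clic6, Ecrg4 and Kcnj13 than in the others.

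Ttr, the thyroxine carrier transthyretin and an abundant transcript of the plexus, had a lowest value of 11.83, a median of 15.19 and a highest of 15.39. Its SD was 1.08, and the 9 arrays other than replicate 2 lay between 14.98 and 15.39. Other members separated those 9 arrays more widely. Sostdc1, a secreted antagonist of BMP and Wnt signals, had 5.47, 8.91 and 9.89, and Lbp, the lipopolysaccharide carrier, had 4.64, 7.23 and 8.83. F5, coagulation factor V, had 5.27, 7.18 and 8.67, and Calml4 had 4.03, 7.62 and 9.36. The least variable members were Igfbp2, an insulin-like growth factor carrier, with 9.05, 10.27 and 10.86, the transporter Slc13a4 with 6.01, 7.20 and 7.78, and the metalloreductase Steap1 with 5.99, 6.97 and 7.96.

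**Figure D3:**
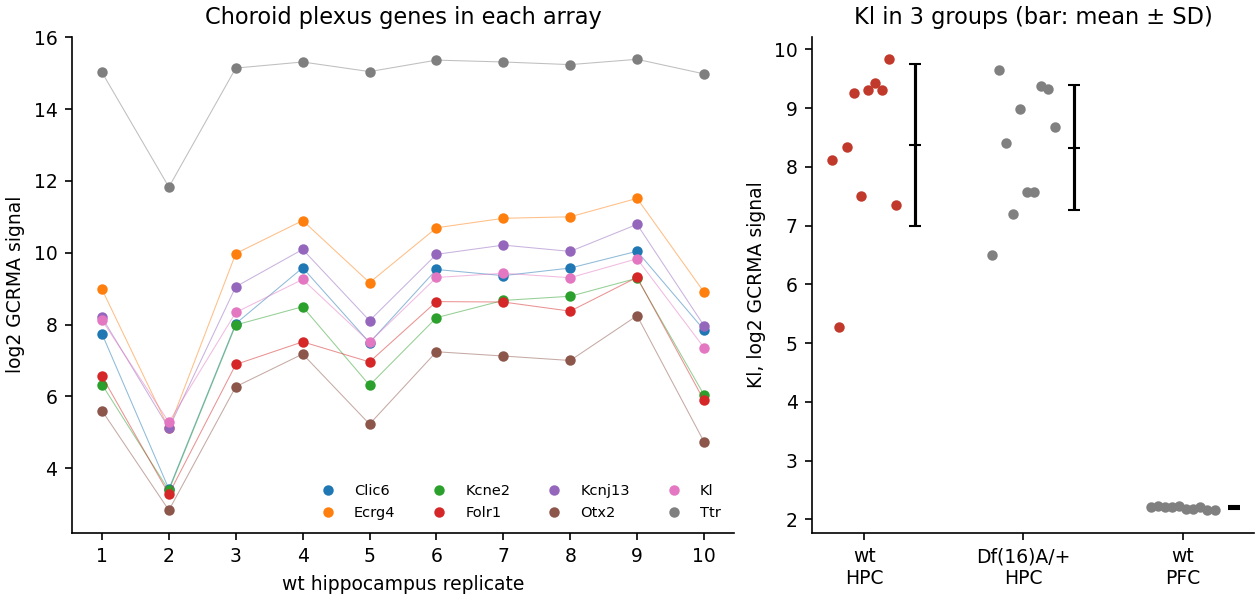
Left, log2 GCRMA signal of 8 choroid plexus genes in each wt hippocampus replicate; replicate 2 is lowest and replicate 9 highest for all 8. Right, Kl in the 10 wt hippocampi, the 10 Df(16)A/+ hippocampi and the 10 wt prefrontal cortices, with mean and SD: 5.28 to 9.83, 6.51 to 9.66 and 2.15 to 2.23.

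The other genes of the group of 71 included Rdh5, a retinol dehydrogenase (3.85, 6.36 and 7.84), the glucose transporter Slc2a12 (4.62, 6.78 and 7.69), Sulf1, a heparan sulfate sulfatase (5.61, 7.51 and 8.62), and the carbonic anhydrase Car12 (7.23, 8.19 and 8.56). The serotonin receptor Htr2c, abundant in choroid epithelium but also in neurons, had 9.21, 9.90 and 10.42, a 2.32-fold range. The growth factor Igf2, made in plexus and meninges, had 8.59, 9.52 and 10.09, and Ace, the angiotensin-converting enzyme, had 7.14, 7.82 and 8.59. Zic1, a zinc finger transcription factor, had 8.15, 9.38 and 9.97 and was lowest in replicate 5. The group also held genes listed for other cells, among them Ak7 of motile cilia, Ppp1r1b of striatum and Ifi27 of the interferon response. The group's median pairwise r was 0.85 with all 10 arrays and 0.84 without replicates 1, 2, 6 and 9.

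The covariation was also fitted across all probe sets. With Kl as the predictor, an anchor chosen after the data were seen, 136 of 16523 probe sets (0.823%) had a positive slope and 4 (0.0242%) a negative one at an adjusted p under 0.05 (limma, Benjamini-Hochberg over all probe sets). Of the 13 other choroid plexus genes measured, 12 passed, all with a positive slope. Sostdc1 had a slope of 0.96 ± 0.03 (SE) per log2 unit of Kl, Kcnj13 one of 1.21 ± 0.05 and Otx2 one of 1.13 ± 0.05. Ttr had 0.67 ± 0.12, and Steap1, the 1 that did not pass, had 0.33 ± 0.08. The 12 genes were chosen for the list and the anchor with their covariation known, so the count adds no independent evidence of it.

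The count of probe sets moved with the arrays in the fit. It was 71 without replicate 2, 88 without 5, 68 without 7, 70 without 8, 70 without 9 and 84 without 10, against 140 with all arrays. Of the 12 choroid genes, 10 to 12 stayed below 0.05 when any 1 array was left out. The beta-actin difference moved with the same arrays: across the 14 choroid genes its median r was -0.78, and 4 of the 14 had a negative slope on it that passed, where 0.98% of probe sets did (limma, Benjamini-Hochberg). The 169 probe sets that passed on the beta-actin difference became 0 with the fluidics station as a block, 17 within the single run, 341 without replicate 5, 60 without 1, 35 without 2, 37 without 3, 33 without 4, 42 without 7, 23 without 8 and 17 without 9. With the beta-actin difference as a covariate, 14 probe sets varied with Kl, and 7 of the 12 choroid genes stayed below 0.05, with a positive slope in 12. With the fluidics station as a block the numbers were 41 probe sets and 9 genes, and within the single hybridization run 70 and 10.

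With Ttr as the predictor, 6 of 16520 probe sets (0.0363%) passed, 5 (0.0303%) with a positive slope and 1 with a negative one, at an adjusted p under 0.05. The 3 genes whose chosen probe set passed were Clic6 with a slope of 1.68 ± 0.20, Ecrg4 with 1.61 ± 0.20 and Sobp, known from inner ear mutants, with 0.38 ± 0.05. All 3 were among the 200. The count was 0 with the beta-actin difference as a covariate, 0 with a filter at a mean of 4 and 2 with the fluidics station as a block. Without replicate 2 the count was 71, but only 2 of the 6 were among them. Without replicate 1 the count was 44 and held all 6, and without replicate 10 it was 10 and held 5 of the 6. The count was 0 to 2 without any 1 of replicates 3 to 8.

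The 57 genes of the next group were low in replicate 1, by 1.07 log2 units on average, and the other 9 arrays stood between -0.22 and 0.23. Rbfox2, a splicing factor, had 6.57, 8.94 and 9.38, with replicates 1 and 2 low. Zkscan8, a zinc finger gene, had 4.16, 6.76 and 7.13, and Otub1, a deubiquitinase, had 5.72, 7.99 and 8.31. Replicate 1 was lowest in all 3. Ccdc153 and Dynlrb2, both of motile cilia, were in this group, with lowest values of 4.17 and 5.02 in replicate 1 and highest values of 6.77 and 7.54 in replicate 8. Cacng5, an auxiliary protein of AMPA receptors on the list for CA2 and CA3, had 4.36 in replicate 1 and 5.73 to 6.63 in the others. The other 3 probe sets of Rbfox2 correlated with the one used at -0.58, 0.50 and 0.22 and had SDs of 0.11 to 0.25, so its spread was not shared by them. The group's median r of 0.74 was 0.23 without replicate 1 and -0.004 without replicates 1, 2, 6 and 9.

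The group of 11 was high in replicate 6 alone. It held the macrophage lysozymes Lyz1 and Lyz2, neighbours on chromosome 10, the interferon-induced Ifitm1, Ifitm2 and Ifitm3, neighbours on chromosome 7, the Fc receptor genes Fcer1g and Fcgr3, the complement gene C1qc, and Ly86, Lgals3bp and Mpeg1. Of the fixed lists, 1 of 12 microglia genes (C1qc) and 1 of 6 interferon genes (Ifitm3) were in it. Lyz1 and Lyz2 are near-identical, so their probe sets may share signal. The Ifitm genes are related, and whether their probe sets share signal was not tested. Lyz2 had a lowest value of 5.45, a median of 5.76 and a highest of 7.99, and Ifitm1 had 5.72, 6.31 and 8.25. Ly86 had 6.74, 7.10 and 8.65, and C1qc had 7.85, 8.37 and 9.23. On average replicate 6 was 1.28 log2 units above the mean of the 10 arrays, and no other array was above 0.01. The median r of 0.86 was 0.30 without replicate 6 and 0.17 without replicates 1, 2, 6 and 9.

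The microglia list, 12 of 16 genes measured, had a median SD of 0.26 and a median r of 0.62, and stood at 0.47 in replicate 6 against -0.22 to 0.05 in the others. Not all its members followed. Tyrobp, the microglial adaptor, had 8.20, 8.42 and 9.34, and C1qb had 10.45, 10.86 and 11.66, both with replicate 6 highest. P2ry12, the purinergic receptor of resting microglia, had 7.32, 7.81 and 8.36, with replicate 6 lowest, and Cx3cr1, the fractalkine receptor, stayed within 8.52 to 8.75. With Lyz2 as the predictor, chosen after the data were seen, 9 probe sets (0.0545%) had a positive slope at an adjusted p under 0.05 and none a negative one (limma, Benjamini-Hochberg; 290 had a negative slope at an unadjusted p under 0.05). They included Ifitm3 with a slope of 0.57 ± 0.06, Fcer1g with 0.50 ± 0.06, Lyz1 and Ifitm1, all of the group of 11, and Chpf and Ackr1 outside the 200. The count was 0 without replicate 6, 2 without 5 or 9, 3 without 2, 4 without 10 and 5 without 4, and it was 0 with the fluidics station as a block and 2 with the beta-actin difference as a covariate. Of the 12 microglia genes 0 passed, Tyrobp with a slope of 0.39 ± 0.06 (limma adjusted p = 0.11).

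The group of 8 was low in replicate 9, the array of the other run and lot, by 1.14 log2 units on average. Cryl1, a crystallin-like dehydrogenase, had 7.34 in replicate 9 and 9.51 to 9.90 in the other 9 arrays. Its other probe sets with a mean above 6 correlated with this one at -0.50 and -0.21. Pik3cd, a kinase subunit, had 8.84, 10.37 and 10.69, and Shh, the morphogen, had 6.48, 7.11 and 7.74. The median r of the 8 was 0.83, with 0.66 without replicate 9 and 0.69 without replicates 1, 2, 6 and 9. In this array the run, the lot and the animal cannot be told apart.

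A set of 6 of the remaining genes was high in replicate 10, by 0.89 on average, and low in replicate 1, by 0.96. It held Prkcd, a kinase of thalamic relay cells (6.28, 7.74 and 8.72), Tcf7l2, a transcription factor of thalamus and habenula (5.55, 6.32 and 7.47), Plekhg1 (6.53, 7.33 and 8.06), Unc13c, a synaptic vesicle priming factor (5.38, 6.62 and 7.72), Il1rapl1 and Etnppl, the last 3 on no regional list. The thalamus and habenula list, 9 of 16 genes measured and 4 of them among the 200, had a median SD of 0.33 and a median r of 0.55. It stood at 0.64 in replicate 10 and at -0.54 in replicate 1, and 8 of its 9 genes were highest in replicate 10, where Slc17a6, the vesicular glutamate transporter of thalamus and subiculum, reached 9.87 against a median of 9.27. With Tcf7l2 as the predictor, chosen after the data were seen, 0 of 16523 probe sets passed (limma; 1503 had an unadjusted p under 0.05), and Rora, a nuclear receptor, had a slope of 0.53 ± 0.08 (limma adjusted p = 0.28). Without replicate 10 the count was 127.

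A further set of 6 was high in replicate 3, by 0.77 on average, and in replicate 7, by 0.52. It held Ccn2, a matrix protein of deep cortical layers (6.38, 7.12 and 8.42), Cbln4, a synapse organizer (6.96, 7.19 and 8.19), Fmod, a collagen-binding proteoglycan (5.51, 6.44 and 7.71), Serpinb1a, Ndnf and Tshz2. Ccn2 was on the list for cortical layers, Tshz2 on that for subiculum and Ndnf on that for interneurons, and the other 3 were on none. The list for cortical layers as a whole had a median SD of 0.13 and stood at 0.19 in replicate 3. Whether dissection borders differed between the animals was not tested.

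**Figure D4:**
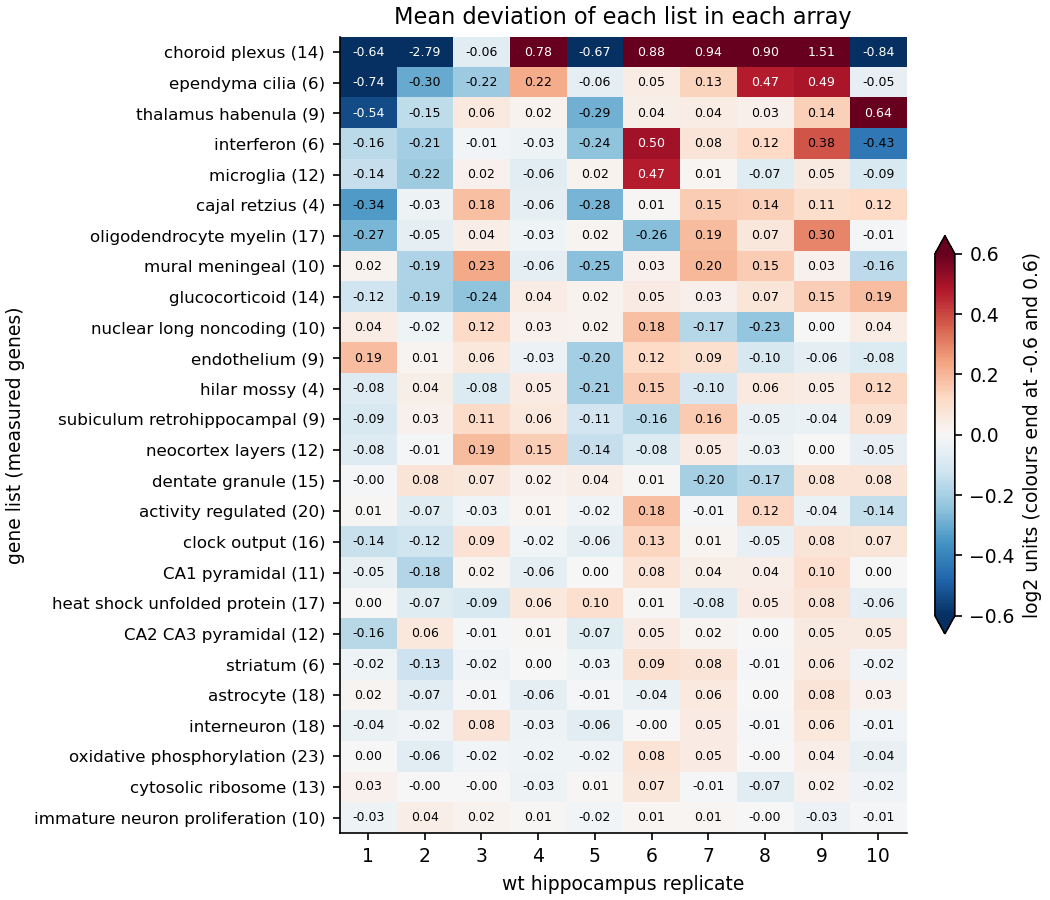
Mean deviation from the 10-array mean (log2 units, colours end at -0.6 and 0.6) of each gene list in each wt hippocampus replicate, with the number of measured genes in brackets. The choroid plexus list spans -2.79 to 1.51, while the astrocyte list stays within -0.07 to 0.08.

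Ide and Fgfbp3 varied as a pair. Ide, the insulin-degrading enzyme, had a lowest value of 8.70, a median of 9.72 and a highest of 10.12, and Fgfbp3, a fibroblast growth factor carrier, had 6.47, 7.47 and 7.95. Replicates 8 and 9 were low in both, replicates 1, 2 and 4 were in between, and replicates 3, 5, 6, 7 and 10 were high. Both lie on chromosome 19 with 3 protein-coding genes between them. A copy number gain that includes Ide and Fgfbp3 is known to segregate in C57BL/6J colonies, and whether these animals carried it was not tested. With Ide as the predictor, chosen after the data were seen, 1 probe set of 16520 (0.00605%) passed, that of Fgfbp3, with a slope of 1.02 ± 0.10. It was 1 probe set with any 1 array left out. Both genes were among the 200 and were taken up for their shared pattern, so the call restates it.

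All 5 probe sets of Ide followed the pattern, with r of 0.79 to 0.98 with the one used. Genes near and between them did not: the r with Ide of the probe sets of Btaf1, Cpeb3 and Marchf5 that had a mean above 6 lay between -0.39 and 0.44. In the wt prefrontal arrays Ide had 9.58, 10.45 and 10.87 as lowest, median and highest value. The prefrontal arrays numbered 8 and 9 were again lowest, in Ide and in Fgfbp3. By number, the hippocampal and prefrontal values of Ide correlated at r = 0.88 (permutation p = 0.0013) and rho = 0.87 (permutation p = 0.0023), with an adjusted p of 0.60 over 8950 genes. The r was 0.58 without the 2 numbers farthest from the median and 0.87 over the 7 numbers whose prefrontal arrays shared a run. The labels do not say that a number marks the same animal in both regions.

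Of 31 activity-regulated genes listed, 20 had a mean above 6 and 1 (5%), Arc, was among the 200 at rank 197, where 2.18% of all genes were. The median SD was 0.16 and the median r 0.098, against 0.113 and 0.086 over all genes. Fos, the best known immediate early gene, had a lowest value of 8.80, a median of 9.40 and a highest of 9.89. Arc, a synaptic capsid-like protein, had 8.92, 9.60 and 10.11, and Dusp1, a phosphatase of MAP kinases, had 7.66, 8.12 and 8.77. In each of these 3 genes replicate 6 was highest and replicate 10 lowest. Junb had 7.76, 8.21 and 8.69, also lowest in replicate 10, and Egr1 had 11.15, 11.36 and 11.59. Homer1, Per1, Jun, Nr4a3, Tiparp and Egr3 had a negative r with Fos, between -0.38 and -0.03.

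With Fos as the predictor, 0 of 16523 probe sets passed (0%; limma, Benjamini-Hochberg; 1246 had an unadjusted p under 0.05), so none of the 19 other activity genes did. Dusp1 had the steepest slope of the list, 0.92 ± 0.17 (r = 0.87, limma adjusted p = 0.55), followed by Arc with 0.72 ± 0.24 (r = 0.67, limma adjusted p = 0.61) and Junb with 0.53 ± 0.23 (r = 0.59, limma adjusted p = 0.64). Egr1 had 0.40 ± 0.13 (r = 0.71, limma adjusted p = 0.61), and Bdnf, the neurotrophin, had 0.31 ± 0.13 (r = 0.64, limma adjusted p = 0.63). These are given as values and do not pass the test.

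The promoters of Fos and Dusp1 are shown because Dusp1 had the highest r with Fos on the activity list. Fos lies at chr12:85473640-85473889 on the plus strand and Dusp1 at chr17:26508473-26508722 on the minus strand, RefSeq on GRCm38.p6. Capitals mark matches to TGACG, the core of the cAMP response element, read on either strand.
Fos: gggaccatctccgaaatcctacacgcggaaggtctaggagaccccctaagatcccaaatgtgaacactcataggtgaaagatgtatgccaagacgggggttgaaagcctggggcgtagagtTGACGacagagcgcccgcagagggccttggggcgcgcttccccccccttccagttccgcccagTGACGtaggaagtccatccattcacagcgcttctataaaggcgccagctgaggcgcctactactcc
Dusp1: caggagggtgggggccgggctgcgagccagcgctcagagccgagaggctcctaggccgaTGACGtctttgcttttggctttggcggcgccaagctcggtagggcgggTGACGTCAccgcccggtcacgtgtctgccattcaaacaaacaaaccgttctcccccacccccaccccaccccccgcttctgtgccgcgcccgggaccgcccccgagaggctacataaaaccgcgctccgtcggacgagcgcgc
The matches began at positions -129 and -66 in Fos and at -191, -143 and -140 in Dusp1, where the last 2 overlap on opposite strands. TGACG was found in 17.765% of all 32851 windows and in 21 of the 38 windows (55.263%) of the 24 activity genes that had one, those of 17 genes. Arc had no entry among the windows, so its promoter was not analysed here.

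Of 21 glucocorticoid-regulated genes listed, 14 had a mean above 6, with a median SD of 0.19 and a median r of 0.29. Sgk1, a kinase of ion transport and the only member among the 200, had a lowest value of 11.41, a median of 12.43 and a highest of 12.92, with replicate 3 lowest, 1 and 2 low, and 9 and 10 high. Nfkbia, the inhibitor of NF-kappa-B, had 10.66, 11.17 and 11.50, and Tsc22d3, the leucine zipper protein GILZ, had 9.85, 10.38 and 10.81. Ddit4, an inhibitor of mTOR signalling, had 9.26, 9.93 and 10.12. In these 4 genes replicate 3 was lowest. Fkbp5, the receptor's co-chaperone, spanned only 9.71 to 9.98 by the probe set used, and Zbtb16 only 9.67 to 9.74. Another Fkbp5 probe set with a mean above 6 spanned 6.02 to 6.57 and correlated with the one used at 0.21. The results for Fkbp5 below rest on the one used.

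With Fkbp5 as the predictor, 0 of 16522 probe sets passed (0%; limma; 1166 had an unadjusted p under 0.05), and its r with Sgk1 was -0.06. With Sgk1 as the predictor, chosen after the data were seen, 3 probe sets (0.0182%) passed, among them the predicted gene Gm19439 with a slope of 1.18 ± 0.09, itself among the 200, and Ptprg, a receptor phosphatase, with 0.53 ± 0.06 (limma adjusted p = 0.019). That count was 1 without replicate 1, 2, 4, 9 or 10, and 0 with the fluidics station as a block. Of the 13 other glucocorticoid genes 0 passed, and their median r with Sgk1 was 0.63, against 0.06 over all genes. Nfkbia had a slope of 0.42 ± 0.07 (r = 0.90, limma adjusted p = 0.19), Tsc22d3 one of 0.49 ± 0.09 (r = 0.89, limma adjusted p = 0.19) and Ddit4 one of 0.43 ± 0.08 (r = 0.89, limma adjusted p = 0.22).

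The wt prefrontal arrays with the same numbers were set beside these values. In wt prefrontal cortex Sgk1 had 11.19, 12.03 and 12.32 as lowest, median and highest value. Number 3 was lowest in both regions, and numbers 1 and 2 were next; the prefrontal arrays 1 to 3 belonged to another run than the other 7. By number the 2 regions correlated at r = 0.97 (permutation p = 1e-05) and rho = 0.94 (permutation p = 0.00029, adjusted p = 0.65). The p of 1e-05 is the smallest that 100000 permutations can give, and its adjusted value over 8950 genes was 0.089. A gene alone at that smallest p could therefore not pass 0.05, whatever its r. The r was 0.91 over the 7 numbers whose prefrontal arrays shared a run, 0.98 without replicate 9 and 0.96 without the 2 numbers farthest from the median. Nfkbia had r = 0.97 (permutation p = 3e-05, adjusted p = 0.13) and rho = 0.98 (permutation p = 7e-05, adjusted p = 0.31), and r = 0.93 over the 7 numbers and 0.91 without the 2 farthest.

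**Figure D5:**
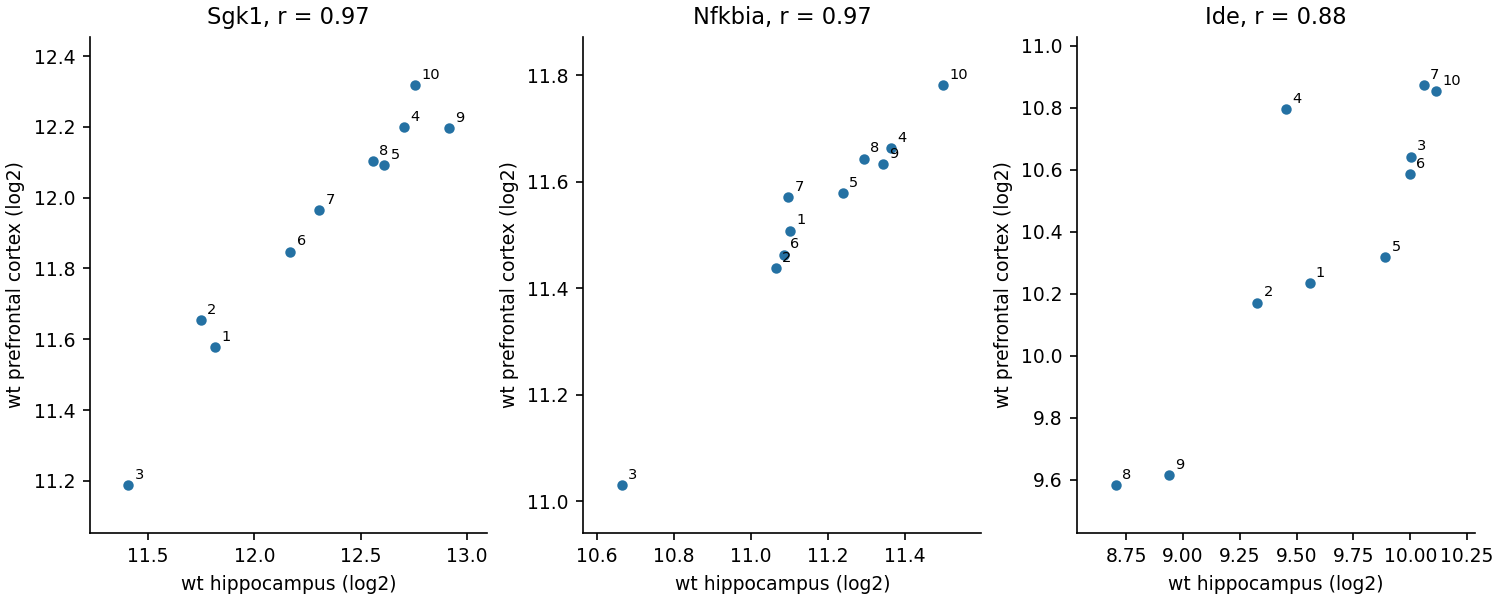
Log2 GCRMA signal of Sgk1, Nfkbia and Ide in the wt prefrontal array against the wt hippocampus array of the same number, 10 numbers each. Number 3 is lowest in both regions for Sgk1 and Nfkbia, and numbers 8 and 9 are lowest for Ide; the labels do not say that a number marks 1 animal.

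Of the 13 glucocorticoid genes measured in both regions, 5 had a positive r at an unadjusted p under 0.05 (Sgk1, Nfkbia, Tsc22d3, Klf9 and Mt2), where 339 of 8950 genes (3.79%) did, and 0 of 8950 genes passed after adjustment (permutation test, Benjamini-Hochberg; 532, or 5.94%, at an unadjusted p under 0.05 in either direction). The list's median r across regions was 0.56, against 0.042 over all genes and 0.041 over the 154 of the 200 measured in both. Tsc22d3 had r = 0.87 overall and 0.40 over the 7 numbers of 1 prefrontal run, and Mt2, a metallothionein, had 0.77 and 0.05, so both were lower within the run. Klf9, a Krüppel-like factor, had 0.79 and 0.65. Fkbp5 had r = -0.16. Among the anchor genes tested as a family of 11 none passed, and Dbp came closest with r = 0.79 (permutation p = 0.011, adjusted p = 0.12) and rho = 0.78 (permutation p = 0.011), with r = 0.85 within the run and 0.70 without the 2 farthest numbers.

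The 16 clock genes measured of 18 listed had a median SD of 0.14 and a median r of 0.23, against 0.113 and 0.086 over all genes. Dbp, an output transcription factor of the clock, had 10.83, 11.13 and 11.38 as lowest, median and highest value. Ciart, a clock repressor, had 5.99, 6.38 and 6.70, and Npas2, a close relative of Clock, had 6.95, 7.73 and 7.96. Replicate 1 was lowest for Dbp and Npas2, replicate 9 was highest for Dbp and replicate 10 for Ciart. With Dbp as the predictor 0 of 16522 probe sets passed (0%; limma; 2127 had an unadjusted p under 0.05), and Ciart had a slope of 1.04 ± 0.18 (r = 0.89, limma adjusted p = 0.27).

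Glial lists differed among themselves. The oligodendrocyte and myelin list, 17 of 20 genes measured, had 0 genes among the 200 but a median r of 0.74, and stood at 0.30 in replicate 9, -0.27 in replicate 1 and -0.26 in replicate 6. Its median r with the beta-actin difference was -0.61, against -0.21 over all genes, and the part of this in the result was not tested. Mog, a myelin surface glycoprotein, had 9.78, 10.19 and 10.84, Aspa, an acetylaspartate hydrolase, had 8.25, 8.59 and 9.21, and Ermn, a myelin cytoskeletal protein, had 9.70, 10.16 and 10.69. All 3 were highest in replicate 9. Mbp, the myelin basic protein, stayed within 14.88 to 15.11 and was lowest in replicate 9, and with it as the predictor 0 of 16517 probe sets passed (0%; limma; 986 had an unadjusted p under 0.05). The r of Mbp with the other measured genes of its list lay between -0.56 and 0.003, so the fit on Mbp does not describe the list's shared variation. The astrocyte list, all 18 genes measured, had a median SD of 0.11 and 0 genes among the 200. Gfap, the astrocyte filament protein, had 11.35, 11.53 and 11.72, and with it as the predictor 0 of 16521 probe sets passed (0%; limma; 1582 had an unadjusted p under 0.05).

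The dentate granule list, 15 of 19 genes measured, had a median SD of 0.17 and a median r of 0.34, and stood at -0.20 and -0.17 in replicates 7 and 8 and between -0.0047 and 0.0781 in the others. Prox1 had 8.35, 8.46 and 8.79, C1ql2, a synaptic organizer of mossy fibres, had 9.62, 9.76 and 10.08, and Dsp, a desmosomal protein, had 9.41, 9.98 and 10.15. With Prox1 as the predictor 0 of 16521 probe sets passed (0%; limma; 739 had an unadjusted p under 0.05). The Prox1 probe set used had an SD of 0.13. Its other probe sets with a mean above 6 had SDs of 0.23 and 0.19 and correlated with it at 0.26 and 0.61, so that fit rests on 1 probe set. The list for CA1 had a median SD of 0.12 and that for CA2 and CA3 one of 0.13, against 0.113 over all genes. Wfs1, a CA1 marker of the endoplasmic reticulum, had 10.08, 10.65 and 10.86, with replicate 1 lowest, and Grik4, a kainate receptor subunit of CA3, had 7.11, 7.34 and 7.54. Decorin (Dcn), on the lists for CA1 and for meninges, had the highest SD of the CA1 list at 0.31, with 9.75, 10.35 and 10.76. Genes of oxidative phosphorylation and of the cytosolic ribosome had the lowest median SDs of the lists, 0.084 and 0.0751.

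The other lists lay between these. The cilia list of the ependyma, 6 of 12 genes measured, had a median SD of 0.31 and a median r of 0.63, and stood at -0.74 in replicate 1 and 0.49 in replicate 9. Its median r with the beta-actin difference was -0.70, with 1 of the 6 passing with a negative slope, and the part of this in the result was not tested. The interferon list, 6 of 14 measured, had a median SD of 0.31 and stood at 0.50 in replicate 6 and -0.43 in replicate 10. The lists for endothelium, for mural and meningeal cells and for subiculum had median SDs of 0.19, 0.22 and 0.24. Cldn5, a tight junction protein of the endothelium, had 6.05, 7.04 and 7.57, with replicates 9 and 10 lowest and replicate 1 highest. Heat shock genes had a median SD of 0.10, and Hspa1b, an inducible chaperone, had 9.02, 9.74 and 10.14, with replicate 3 lowest. Nuclear long noncoding RNAs had a median SD of 0.21 and stood at -0.23 in replicate 8. Of the lists for blood and for pituitary and hypothalamus, 1 of 11 and 1 of 12 genes had a mean above 6; a listed gene with no probe set of its own, such as Hbb-b1, also counts as not measured, so these lists say little about either source. The lists for interneurons, hilar mossy cells, striatum, Cajal-Retzius cells and immature neurons had median SDs of 0.11, 0.14, 0.13, 0.18 and 0.11.

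Among the 14 anchor genes, 1 per cell type or process, 0 of 91 pairs passed (permutation test of r, Benjamini-Hochberg; 4 at an unadjusted p under 0.05). The smallest adjusted p was 0.72, which Gfap and Csf1r, the microglial growth factor receptor, had with r = 0.65. For Kl the genes of most similar pattern were Sostdc1 (r = 0.99), Kcnj13 (0.99), Otx2 (0.99), Slc2a12 (0.98) and Kcne2 (0.98), over 10 arrays and 9173 genes. For Fos they were Tgfb2 (0.95), Lrp10 (0.94), Necap2 (0.88), Dusp1 (0.87) and Plscr3 (0.87).

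The same measure of spread was set against the other groups. Against wt prefrontal cortex, 7 of 16033 probe sets (0.0437%) differed in their absolute deviation from the group mean at an adjusted p under 0.05 (limma, Benjamini-Hochberg), 6 (0.0374%) more variable in the wt hippocampus and 1 (0.00624%) less. The 5 with a gene name were Vat1l, with an SD of 0.66 in wt hippocampus and 0.08 in wt prefrontal cortex, Igfbp2, with 0.65 and 0.17, Ppp1r1b, with 0.40 and 0.10, Hoxa5, with 0.26 and 0.06 (limma adjusted p = 0.0083), and Efcab1, with 0.24 and 0.06 (limma adjusted p = 0.019). Vat1l, Igfbp2 and Ppp1r1b belonged to the group of 71, chosen by their SD in wt hippocampus, so their calls are no independent evidence. Cuedc1, by 1 of its probe sets, was less variable in wt hippocampus, with 0.06 against 0.21 in wt prefrontal cortex (limma adjusted p = 0.037). The count was 12 without wt hippocampus replicate 3, 4 without 6, 1 without 8 and 3 without 9. The fit took the arrays as independent, although both regions came from the same mice, and with the replicate number as a block 0 probe sets passed, so every call named here was lost. Of the 14 choroid plexus genes, 2 had a mean above 6 in wt prefrontal cortex, and Kl was not tested there.

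Over the 8950 genes measured in both regions the median SD was 0.112 in wt hippocampus and 0.0981 in wt prefrontal cortex. The lists of 200 most variable genes shared 75 genes, 37.5% of each, where 2.18% of all genes were among the 200 in wt hippocampus. The regions appear to have been scaled separately, which can change an SD, and its part in these values was not tested.

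Against the Df(16)A/+ hippocampus, 0 of 16409 probe sets differed in spread (limma, Benjamini-Hochberg). At an unadjusted p under 0.05 there were 2661, of which 2499 varied less in the wt hippocampus. The median SD over 9115 genes was 0.113 in wt and 0.160 in Df(16)A/+ hippocampus. In the Df(16)A/+ group, arrays 1 and 2 shared the run of 9 wt hippocampus arrays, and arrays 3 to 10 were in another. Arrays 3, 5 and 7 came from other chip lots than the rest. The part of run and lot in these SDs was not tested. The lists of 200 shared 89 genes, 44.5% of each, where 2.18% of all genes were among the 200 in wt hippocampus. The choroid plexus list varied in both: its mean ranged from -2.79 to 1.51 around the group mean in wt and from -2.16 to 1.54 in Df(16)A/+ hippocampus. Kl had an SD of 1.38 in wt and 1.06 in Df(16)A/+ hippocampus (limma adjusted p = 0.79). Fos had an SD of 0.32 in wt and 0.87 in Df(16)A/+ hippocampus, and this difference did not pass (limma adjusted p = 0.14).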

How the data were processed

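Total RNA was extracted with Trizol and RNeasy columns, labelled with biotin and hybridized, per the labels' protocols. The deposited log2 values were made by the authors with GCRMA, per the submitters' processing notes; no source used here gives its version or settings, and the number of arrays limits the precision. Probe sets were named by GEO's platform annotation (34945 with 1 gene, 932 with several, 9160 with none, 64 controls), with symbols updated through RefSeq. Runs, chip lots and fluidics stations came from the deposited array records.

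Genes needed a mean above 6. Groups came from average linkage on 1 minus r, at a height of 0.4, with at least 8 genes. Every probe set was regressed on an anchor gene with limma 3.58.1 in R 4.3.3, and spread was compared by limma on absolute deviations from the group mean, with Benjamini-Hochberg adjustment over all probe sets tested. Correlations by number used 100000 permutations, two-sided. Python 3.11.15, numpy 2.4.6, pandas 2.3.3, scipy 1.17.1 and matplotlib 3.10.9 did the rest. The fits were tested on simulated data. A planned regression is not reported here. The p-values measure only the spread between these samples.

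Genes named were the 30 with the highest SD, the anchors, the 4 most variable members of each of the gene lists and those among the 200, the 10 with the smallest adjusted p in each fit, called members of the anchor's list, and the 5 most like each anchor; others were named after their values were seen. Members and lists were chosen with earlier results of these data known. The regressions on Kl, Mbp, Sgk1, Tcf7l2, Lyz2 and Ide, the fluidics station block, the removal of replicates 1, 2, 6 and 9 together and the comparison of all genes across regions by number were chosen after seeing the data.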

Additional observations from a re-analysis of the deposited data

Results flagged for a closer look

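Of 46 genes checked, 12 had 1 array farther from the other 9 than Dixon's critical value for the gap over the range; chance alone marks about 1 in 20, but 30 of the genes were chosen for the highest SD over these arrays, which favours an outlying array, so the count is not evidence against that rate. Replicate 2 was the low array in 5 choroid plexus genes. It had 3.42 for Clic6 against 7.49 in the nearest array, 5.10 for Ecrg4 against 8.90, 5.11 for Kcnj13 against 7.97, 5.47 for Sostdc1 against 7.60 and 11.83 for Ttr against 14.98. The other probe set of Clic6 had a lowest value of 6.17. Replicate 1 was low with 4.16 for Zkscan8, against 6.59 in the nearest array, and with 4.17 for Ccdc153, against 5.47. Replicate 6 was high with 8.70 for Lyz1, against 7.13, with 7.99 for Lyz2, against 6.29, and with 10.18 for Csf1r, against 9.81. Replicate 9 was low with 7.34 for Cryl1, against 9.51, and replicate 10 was high with 7.47 for Tcf7l2, against 6.51.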

How the results depend on the processing

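Of 320 settings over 20 counts, 235 gave a count within 1.5 times the one reported; the causes of the changes below were not tested unless stated. Centring each array on its median lowers replicate 1, whose median over all probe sets was 3.94 against 3.62 to 3.71. Whether this shift accounts for the changed counts was not tested. With centring the count became 3748 for Dbp, 4102 for Gfap, 14 for Ttr, 1 for Prox1, 10 for Tcf7l2 and 7 for Sgk1. It became 3995 for the beta-actin difference, and 3763 pairs of the 200 reached 0.8. Quantile normalization gave 11 for Ttr and 55 for the beta-actin difference. A filter at a mean of 4 gave 0 for Ttr, 97 for the beta-actin difference, 5 for Sgk1, 22 for spread against wt prefrontal cortex and 4 against Df(16)A/+ hippocampus. A second anchor gave 3 with Sgk1 for Fkbp5, 244 with Per3 for Dbp, 1 with C1ql2 for Prox1 and 2 with Prkcd for Tcf7l2. An intensity trend with robust variance gave 2 for Ttr. The arrays of 1 run gave 70 for Kl, 1 for Sgk1, 2 for Lyz2 and 17 for the beta-actin difference, and the chip lot as a block gave 71, 1, 2 and 17. The fluidics station as a block gave 41 for Kl, 0 for Sgk1, 0 for Lyz2, 2 for Ttr and 0 for the beta-actin difference. The beta-actin difference as a covariate gave 14 for Kl, 0 for Ttr, 2 for Lyz2 and 3 for Tcf7l2. Deviations taken within runs gave 17 for spread against wt prefrontal cortex.

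Of the 200 genes, 103 were kept with a mean above 4, 85 with no filter, 109 with the probe set of highest SD, 116 by median absolute deviation and 113 without replicates 1, 2, 6 and 9. Leaving out each array in turn gave 154 to 196 shared genes, 2208 to 2917 pairs, 68 to 161 probe sets for Kl, 0 to 71 for Ttr, 0 to 127 for Tcf7l2, 0 to 10 for Lyz2, 1 to 4 for Sgk1, 0 to 1 for Mbp and 17 to 341 for the beta-actin difference, 1 to 12 for spread against wt prefrontal cortex and 0 to 1 against Df(16)A/+ hippocampus; Ide stayed at 1, and Fos, Fkbp5, Dbp, Gfap and Prox1 at 0. With the replicate number as a block, 0 probe sets differed in spread from wt prefrontal cortex, against 7 without it. Over 8950 genes, arrays of the same number correlated at -0.137 to 0.136 across the regions, and 1 of 10 numbers was matched best by its own. No label says that a number marks 1 animal, so correlations and blocks by number compare arrays of the same label, not known pairs.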
